A study of Rattus norvegicus with 9 samples.

Results

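A set of 10 genes, grouped as NF-kB mediators, chemokines and adhesion molecules, was followed in cultured neonatal rat ventricular myocytes. These are the beating muscle cells of the newborn heart ventricle. NF-kB is a transcription factor, and dependence of the 10 genes on it was not measured. They are the chemokines Ccl2, Cxcl1 and Cxcl12, the cytokine Il6, the prostaglandin synthase Ptgs2, the adhesion molecules Icam1 and Vcam1, and the inhibitor and feedback genes Nfkbia, Nfkbiz and Tnfaip3. They were taken by gene symbol, whatever their values, and all 10 were found among the 28935 genes of the count table. Myocytes from Sprague Dawley rats 1 or 2 days old were kept in medium with 3% serum for 48 h. They then received adenovirus carrying the transcription factor Nfya, the transcription factor Nfe2l1 or green fluorescent protein (GFP), 8 µL of virus in 1 mL of serum-free medium, for 48 h. Each virus has 3 libraries of messenger RNA, 9 in all, and the GFP virus is the control for infection. Virus is given only as a volume, so whether the groups received equal doses was not checked. No uninfected culture is among the libraries, so every group shares the exposure to virus and the serum-free medium. Separate cultures behind the 3 libraries of a virus are not stated in the labels. The p-values thus speak only to the scatter among the sequenced libraries, and that scatter may be technical.

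NF-kB is a dimer of Rel family proteins that is held in the cytoplasm by inhibitor proteins such as IkB alpha, the product of Nfkbia. Cytokine and pattern receptors activate a kinase complex that marks the inhibitor for destruction, and the freed dimer enters the nucleus and binds kB sites in the promoters of chemokine, cytokine and adhesion genes. Several of its targets, Nfkbia and Tnfaip3 among them, encode brakes on the same pathway. In the heart, chemokines and adhesion molecules of this kind recruit leukocytes after injury. NFYA is the DNA-binding subunit of the NF-Y complex, which binds the CCAAT box, and NFE2L1 is a factor of the cap'n'collar family that binds antioxidant response elements and drives proteasome genes.

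Promoter sequence was available from RefSeq (build GRCr8) for 9 of the 10 genes, as 300 bases from 250 before to 50 after the start of the gene, with Ccl2 the exception. The kB consensus, searched on both strands, was found in 6 of these 9 promoters and in 7.51% of 33469 promoters of the same length. The 10 genes were chosen as NF-kB genes, so this share reflects the choice and is not a result of the libraries. Cxcl12, Icam1 and Ptgs2 had no match in these 300 bases. The stretches around the matches are shown because NF-kB binds kB sites. Each is written 5′ to 3′ on the strand of its gene, with the kB matches in capitals.
Cxcl1, chr14:17479355-17479445, minus strand: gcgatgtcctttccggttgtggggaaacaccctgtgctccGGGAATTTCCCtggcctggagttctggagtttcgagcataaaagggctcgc
Il6, chr4:5894594-5894683, minus strand: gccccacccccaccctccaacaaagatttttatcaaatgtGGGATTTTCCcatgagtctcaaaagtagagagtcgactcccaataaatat
Vcam1, chr2:206742827-206742916, minus strand: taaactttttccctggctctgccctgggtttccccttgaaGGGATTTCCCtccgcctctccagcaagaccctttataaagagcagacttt
Nfkbia, chr6:78597073-78597143, minus strand: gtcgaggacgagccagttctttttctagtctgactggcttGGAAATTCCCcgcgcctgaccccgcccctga
Nfkbiz, chr11:58251668-58251720, plus strand: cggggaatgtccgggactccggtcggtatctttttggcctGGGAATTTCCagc
Tnfaip3, chr1:15543985-15544086, minus strand: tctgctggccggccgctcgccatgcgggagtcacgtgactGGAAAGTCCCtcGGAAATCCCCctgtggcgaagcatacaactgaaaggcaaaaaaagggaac

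With -1 the base before the start, the first base of a match was at -84 in Cxcl1, -68 in Il6, -93 in Vcam1, -31 in Nfkbia and -13 in Nfkbiz. Tnfaip3 had matches at -67 and -55 and one more at -170, outside the stretch shown. The Cxcl1 capitals hold 2 overlapping matches, one on each strand, and the matches of Vcam1 and of Tnfaip3 at -170 read as the consensus on both strands. A CCAAT box was found on either strand in 3 of the 9 promoters, those of Il6, Icam1 and Ptgs2, and in 37.5% of all 33469. The antioxidant response element core TGACNNNGC was found in 1, that of Nfkbia at -15, and in 12.1% of all. None of the matches of one pattern overlapped a match of another pattern. A match is only a run of letters, and whether any factor binds there was not measured.

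Library totals ran from 5712123 to 7310774 counts and 14151 genes, all 10 of the present ones included, passed the filter on low counts. The rat row of Nfya held 88.3 to 89.6 CPM (counts scaled to the size of the library) in the libraries labelled Nfya, 90.5 to 94.8 CPM in those labelled Nfe2l1 and 77.8 to 81.9 CPM in those labelled GFP. The rat row of Nfe2l1 held 233 to 245 CPM in libraries labelled Nfe2l1, 218 to 227 CPM in those labelled Nfya and 234 to 246 CPM in those labelled GFP. Neither row was highest in the libraries labelled with its own virus, so these rows do not check the labels. Whether the cDNA in the virus is from the rat, and whether its reads would fall in these rows, is not given in the sources used here. Every group is therefore called by its label below, and every direction rests on those labels.

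Cardiomyocyte markers were present at 10 counts or more in every library, for all 13 marker rows found. Their summed level was 4114 to 4184 CPM in Nfya-labelled libraries, 3708 to 4105 CPM in Nfe2l1-labelled and 3875 to 4294 CPM in GFP-labelled libraries, with the Nfya-labelled libraries just above the Nfe2l1-labelled ones and the GFP-labelled range overlapping both. Of the 13, the test described below called 5 higher and 0 lower in Nfya-labelled against Nfe2l1-labelled libraries. Against GFP-labelled libraries it called 3 higher and 0 lower with Nfya, and 0 higher and 2 lower with Nfe2l1. Over all genes tested it called 24.3% higher and 27.9% lower with Nfya, and 28.9% and 29.7% with Nfe2l1. Between the factors these shares were 25.2% and 25.4%. Markers of other heart cells were also present. The 15 fibroblast markers summed to 2415 to 2442 CPM in Nfya-labelled, 2067 to 2207 CPM in Nfe2l1-labelled and 1315 to 1388 CPM in GFP-labelled libraries. Of these 15, the same test called 13 higher and 1 lower in Nfya-labelled against GFP-labelled libraries, and 14 higher in Nfe2l1-labelled against GFP-labelled libraries. The 13 endothelial rows summed to 493 to 513 CPM in Nfya-labelled, 514 to 560 CPM in Nfe2l1-labelled and 355 to 374 CPM in GFP-labelled libraries, with Robo4 at 0 throughout. The 18 leukocyte rows summed to 124 to 136 CPM in Nfya-labelled, 123 to 136 CPM in Nfe2l1-labelled and 90.4 to 116 CPM in GFP-labelled libraries. Of the leukocyte rows, 7 stayed below 10 counts in every library, with the T cell marker Cd3e at 0 throughout. Endothelial and leukocyte sums were thus higher in every library of both factors than in any GFP-labelled library. Against GFP-labelled libraries, 8 of 12 endothelial markers tested were called higher and 1 lower with Nfya, and 9 higher and 2 lower with Nfe2l1. Kdr went the other way, with 940 to 1100 counts in GFP-labelled, 502 to 515 in Nfya-labelled and 541 to 675 in Nfe2l1-labelled libraries. Of 11 leukocyte markers tested, 7 were called higher and 1 lower with Nfya, and 3 higher and 0 lower with Nfe2l1. The 12 smooth muscle and pericyte markers summed to 1845 to 1855 CPM in Nfya-labelled, 1437 to 1505 CPM in Nfe2l1-labelled and 1694 to 1741 CPM in GFP-labelled libraries. The 11 epicardial and mesothelial markers summed to 216 to 241 CPM in Nfya-labelled, 306 to 315 CPM in Nfe2l1-labelled and 184 to 196 CPM in GFP-labelled libraries. In bulk RNA of a mixed culture, a change in the number of cells of a type and a change in RNA per cell cannot be told apart. The part of these cell types in the results on the 10 genes was not tested.

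**Figure D1:**
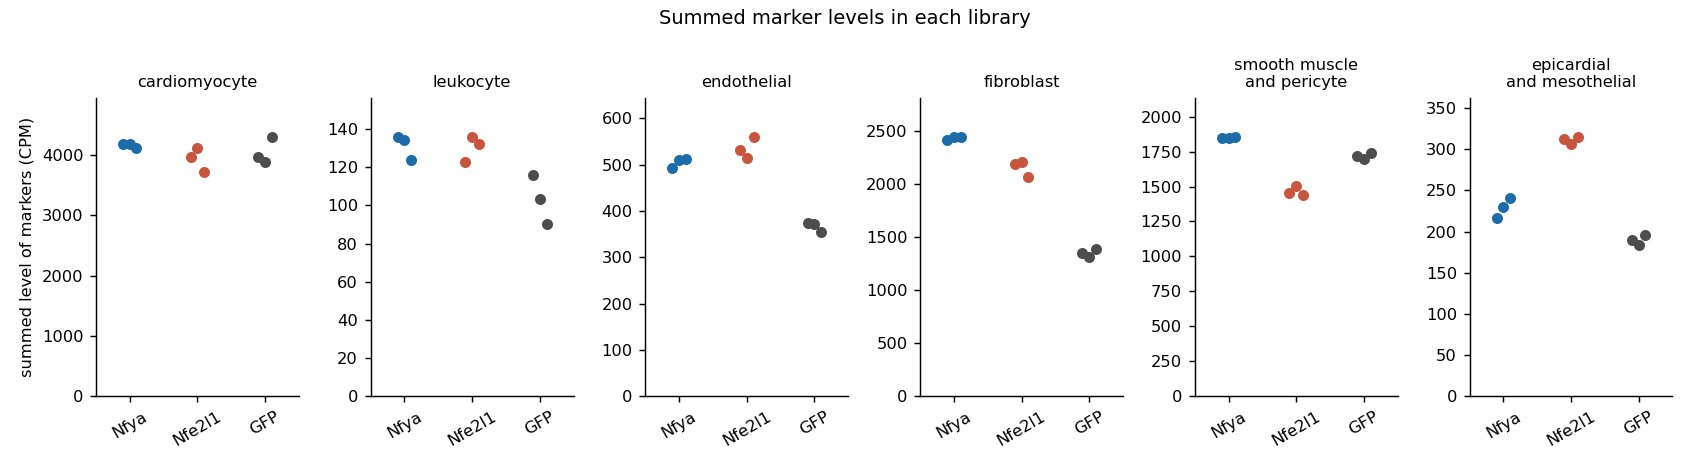
Summed CPM of 6 lists of cell type markers (vertical axes, each starting at 0) in the 3 libraries labelled Nfya, Nfe2l1 and GFP (horizontal axis, 1 point a library). Fibroblast and endothelial sums of both factor-labelled groups lie above those of the GFP-labelled libraries, while the cardiomyocyte sums of the GFP-labelled libraries overlap those of both other groups.

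Levels can be compared between genes only per length, as RPKM (reads per length of transcript and size of library), which the authors deposited. In Nfya-labelled libraries Icam1 had the highest mean of the 10 genes, 48.6 RPKM, followed by Ccl2 at 30.3, Nfkbia at 25.1, Ptgs2 at 20.9, Vcam1 at 12.6, Cxcl12 at 10.5, Nfkbiz at 9.13, Tnfaip3 at 7.03, Cxcl1 at 6.21 and Il6 at 4.24 RPKM. In that order only Tnfaip3 and Cxcl1 were neighbours whose libraries overlapped. In Nfe2l1-labelled libraries Ccl2 stood first at 62.3 RPKM, ahead of Icam1 at 30.6, Nfkbia at 24.8 and Ptgs2 at 17.7 RPKM. Nfkbiz at 8.14 and Vcam1 at 7.57 RPKM overlapped there, as did Cxcl12 at 5.03 with Tnfaip3 at 4.68 RPKM and Tnfaip3 with Il6 at 4.01 RPKM, and Cxcl1 lay between these runs at 5.88 RPKM.

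In GFP-labelled libraries the inhibitor gene Nfkbia came first at 31.2 RPKM, then Icam1 at 20.8 and Ptgs2 at 20.5 RPKM, which overlapped, and Nfkbiz at 19.3 and Ccl2 at 19.1 RPKM, which overlapped too. Vcam1 at 8.73 and Tnfaip3 at 7.81 RPKM overlapped, and Cxcl1 at 5.54, Cxcl12 at 4.68 and Il6 at 4.20 RPKM closed the order, each overlapping the next. The first place thus went to the adhesion gene Icam1 in Nfya-labelled libraries, the chemokine Ccl2 in Nfe2l1-labelled libraries and the inhibitor Nfkbia in GFP-labelled libraries. Among the 14986 genes of the RPKM table, Ccl2 stood at percentile 67.1 in Nfya-labelled, 90.7 in Nfe2l1-labelled and 52.0 in GFP-labelled libraries. Icam1 stood at percentile 84.2 in Nfya-labelled, 67.0 in Nfe2l1-labelled and 54.7 in GFP-labelled libraries. Nfkbiz stood at percentile 34.9 in Nfya-labelled, 33.8 in Nfe2l1-labelled and 52.4 in GFP-labelled libraries.

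**Figure D2:**
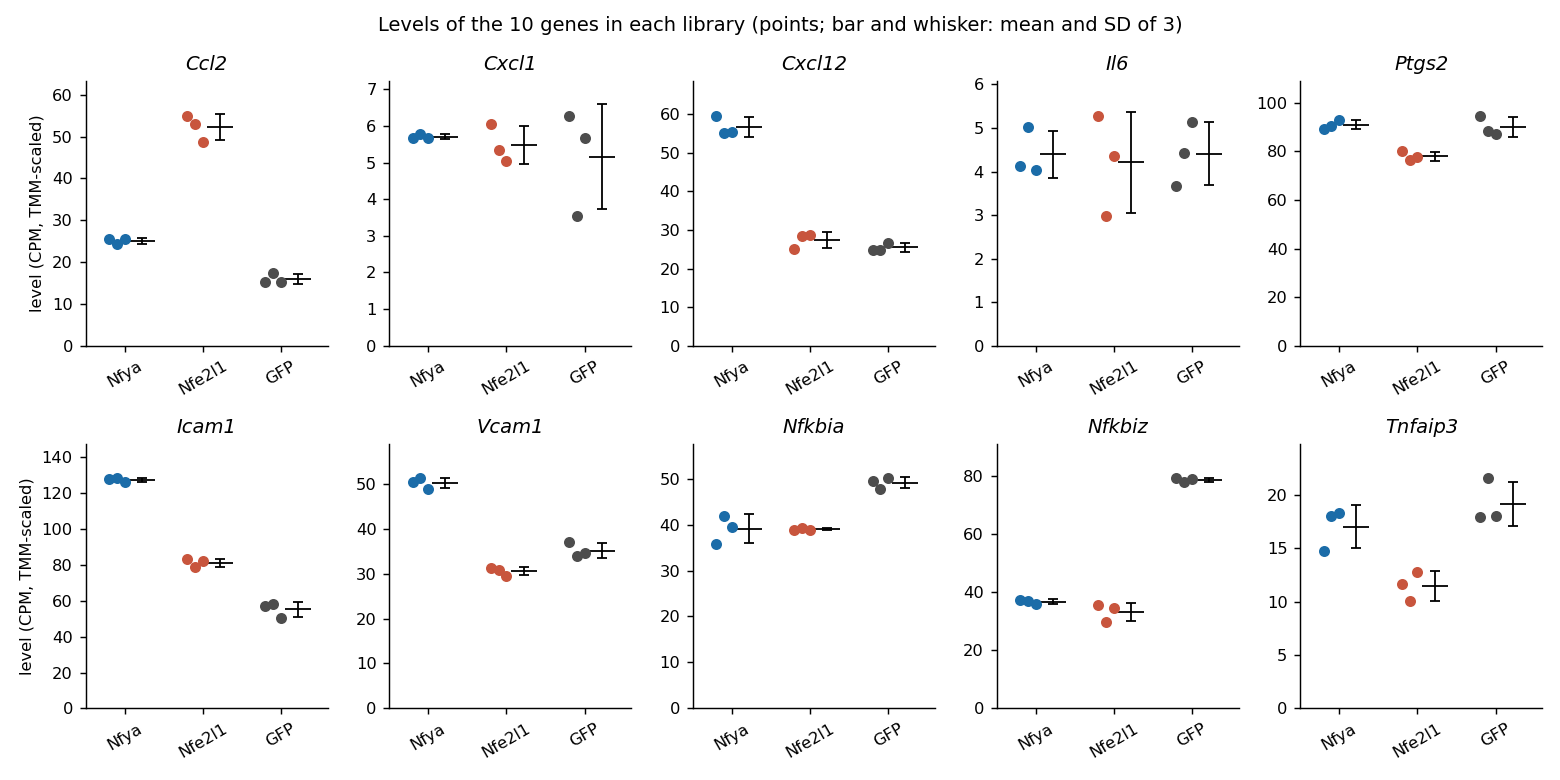
Levels of the 10 genes in CPM scaled by the TMM method (vertical axes, each starting at 0) in every library labelled Nfya, Nfe2l1 or GFP (points), with mean and SD of 3 libraries (bar and whisker). Ccl2 is highest in Nfe2l1-labelled libraries, Cxcl12, Icam1 and Vcam1 in Nfya-labelled libraries, and Nfkbia and Nfkbiz in GFP-labelled libraries, while Cxcl1 and Il6 lie near 5 CPM with overlapping groups.

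Changes were tested with edgeR's quasi-likelihood test across all 14151 genes in 1 fit of the 9 libraries, and a gene was called where its Benjamini-Hochberg adjusted p was below 0.05. In Nfya-labelled against GFP-labelled libraries, 4 of the 10 genes rose (Ccl2, Cxcl12, Icam1 and Vcam1), 2 fell (Nfkbia and Nfkbiz) and 4 were not called. Of all genes tested, 52.2% were called in this comparison, 24.3% higher and 27.9% lower. The libraries of both groups did not overlap for the same 6 genes, against 61.6% of all genes tested. The change was called and at least 2-fold for 3 of the 10 genes, against 9.87% of all genes tested. The median log2 fold change of the 10 genes was 0.08, and that of all genes tested was -0.02.

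In Nfe2l1-labelled against GFP-labelled libraries, 2 of the 10 genes rose (Ccl2 and Icam1), 5 fell (Vcam1, Nfkbia, Nfkbiz, Tnfaip3 and Ptgs2) and 3 were not called. Of all genes tested, 58.6% were called in this comparison, 28.9% higher and 29.7% lower. The libraries of both groups did not overlap for the same 7 genes, against 64% of all genes tested. The change was called and at least 2-fold for Ccl2 and Nfkbiz, 2 of the 10 genes, against 12.2% of all. The median log2 fold change of the 10 genes was -0.13, and that of all genes tested was -0.01. This comparison and the preceding one share the 3 GFP-labelled libraries, so their values are given side by side only.

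In Nfya-labelled against Nfe2l1-labelled libraries, which needs no GFP library, 5 genes were higher (Cxcl12, Icam1, Vcam1, Tnfaip3 and Ptgs2), 1 was lower (Ccl2) and 4 were not called. Of all genes tested, 50.6% were called, 25.2% higher and 25.4% lower. Libraries did not overlap for 7 of the 10 genes, those 6 and Nfkbiz, against 60% of all genes tested. The difference was called and at least 2-fold for Ccl2 and Cxcl12, 2 of the 10, against 6.77% of all. The median log2 fold change of the 10 genes was 0.18, and that of all genes tested was 0.01. With about every second gene called throughout, the shares of called genes among these 10 are near the background and say nothing particular about them. The sizes and the opposite directions of single genes are described next.

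**Figure D3:**
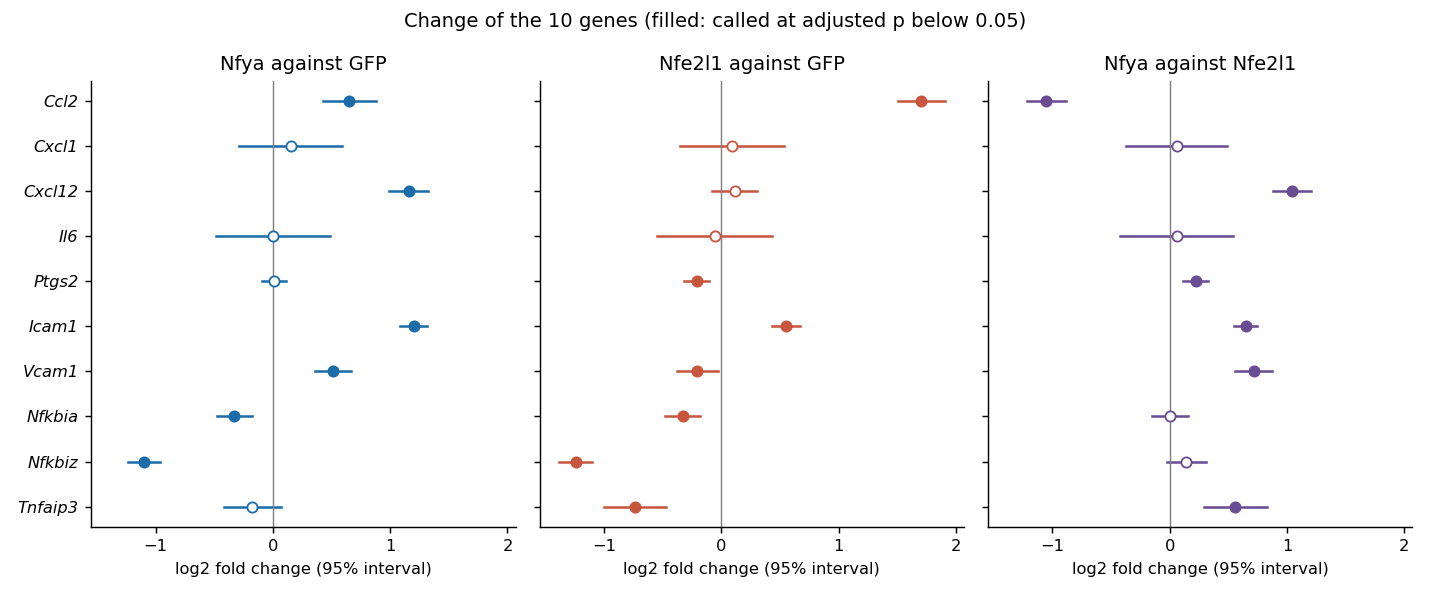
Log2 fold changes of the 10 genes (points, with 95% intervals) in Nfya-labelled against GFP-labelled, Nfe2l1-labelled against GFP-labelled and Nfya-labelled against Nfe2l1-labelled libraries, with called genes filled. Vcam1 lies right of 0 in the first panel at 0.51 and left of it in the next at -0.20, and Ccl2 reaches 1.70 in the Nfe2l1 panel.

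Ccl2 encodes MCP-1, the chemokine that draws monocytes through the receptor Ccr2. It had 25.6, 24.3 and 25.5 CPM in Nfya-labelled libraries, 55.0, 53.1 and 48.8 CPM in Nfe2l1-labelled libraries and 15.3, 17.3 and 15.2 CPM in GFP-labelled libraries. All 3 Nfe2l1-labelled libraries were above all Nfya-labelled ones, which were above all GFP-labelled ones, with no overlap. Against GFP-labelled libraries Ccl2 was 1.57-fold higher in Nfya-labelled libraries (log2 fold change 0.65 ± 0.11 SE, adjusted p = 1.07e-05) and 3.26-fold higher in Nfe2l1-labelled libraries (1.70 ± 0.09 SE, adjusted p = 1.67e-11). Between the factors it was lower in Nfya-labelled than in Nfe2l1-labelled libraries, with a log2 difference of -1.05 ± 0.08 (SE, adjusted p = 1.69e-09). Higher with both factors and lower with Nfya than with Nfe2l1 was a set of calls that 3.88% of all genes tested shared. The summed epicardial and mesothelial markers and the summed endothelial markers given above stood in the same order of groups as Ccl2, without overlap. Single markers did not all follow the sums. In Nfya-labelled against Nfe2l1-labelled libraries, 5 of 12 endothelial markers tested were called higher and 3 lower. Of 10 epicardial and mesothelial markers tested, 1 was called higher and 3 lower there. The part of these cell types in this result was not tested.

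Cxcl12 encodes SDF-1, the chemokine that holds and recruits cells bearing Cxcr4. Its level was 59.6, 55.0 and 55.5 CPM in Nfya-labelled libraries, 25.0, 28.5 and 28.8 CPM in Nfe2l1-labelled libraries and 24.8, 24.8 and 26.7 CPM in GFP-labelled libraries. Only the Nfya-labelled libraries stood apart, and the Nfe2l1-labelled and GFP-labelled ones overlapped. Cxcl12 was 2.23-fold higher in Nfya-labelled than in GFP-labelled libraries (log2 fold change 1.16 ± 0.08 SE, adjusted p = 4.5e-10) and 2.06-fold higher in Nfya-labelled than in Nfe2l1-labelled libraries (1.04 ± 0.07 SE, adjusted p = 1.13e-09). Nfe2l1-labelled against GFP-labelled libraries gave a log2 fold change of 0.12 with a 95% interval of -0.08 to 0.31 (adjusted p = 0.268), which leaves room for a change of up to 1.24-fold.

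Cxcl1, the neutrophil chemokine known as KC or GRO, was a low gene with 24 to 41 counts in a library. It averaged 5.70 ± 0.06 CPM in Nfya-labelled, 5.48 ± 0.53 CPM in Nfe2l1-labelled and 5.16 ± 1.43 CPM in GFP-labelled libraries (SD, n = 3 each). The GFP-labelled libraries alone ran from 3.55 to 6.28 CPM and covered every library of the other groups. Its log2 fold change against GFP-labelled libraries was 0.15 in Nfya-labelled libraries (95% interval -0.29 to 0.59, adjusted p = 0.572) and 0.09 in Nfe2l1-labelled libraries (-0.35 to 0.53, adjusted p = 0.731). At this depth the interval with Nfya leaves room for a change of up to 1.51-fold.

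Il6, the cytokine of the acute phase response, was also low, at 19 to 34 counts in a library. It averaged 4.39 ± 0.54 CPM in Nfya-labelled, 4.21 ± 1.16 CPM in Nfe2l1-labelled and 4.41 ± 0.73 CPM in GFP-labelled libraries (SD, n = 3 each), and the groups overlapped. Its log2 fold change against GFP-labelled libraries was 0.00 in Nfya-labelled libraries (95% interval -0.48 to 0.49, adjusted p = 0.997) and -0.06 in Nfe2l1-labelled libraries (-0.55 to 0.43, adjusted p = 0.85). Cxcl1 and Il6 were called in none of the 3 comparisons by edgeR or by DESeq2, and neither had an unadjusted p below 0.05 in any. Not being called by edgeR in any of the 3 was shared by 23.2% of all genes tested.

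Ptgs2 encodes cyclooxygenase-2, the inducible enzyme that starts prostaglandin synthesis. It had 89.4, 90.3 and 92.9 CPM in Nfya-labelled libraries, 79.9, 76.3 and 77.6 CPM in Nfe2l1-labelled libraries and 94.7, 88.2 and 87.2 CPM in GFP-labelled libraries. The Nfe2l1-labelled libraries were the lowest and did not overlap the others, whereas Nfya-labelled and GFP-labelled libraries overlapped. Ptgs2 fell by 0.21 ± 0.05 on the log2 scale in Nfe2l1-labelled against GFP-labelled libraries (SE, adjusted p = 0.000358) and was 1.17-fold higher in Nfya-labelled than in Nfe2l1-labelled libraries (adjusted p = 0.000259). In Nfya-labelled against GFP-labelled libraries its log2 fold change was 0.01, with a narrow 95% interval of -0.09 to 0.12 (adjusted p = 0.865).

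Icam1 encodes the intercellular adhesion molecule that leukocyte integrins bind, and its rise in Nfya-labelled against GFP-labelled libraries was, with that of Cxcl12, the largest of the 10 genes. Its level was 128, 128 and 126 CPM in Nfya-labelled libraries, 83.0, 78.9 and 82.0 CPM in Nfe2l1-labelled libraries and 57.2, 58.1 and 50.4 CPM in GFP-labelled libraries. The 3 groups did not overlap and went down in the order Nfya, Nfe2l1, GFP. Icam1 was 2.30-fold higher in Nfya-labelled libraries (log2 fold change 1.20 ± 0.05 SE, adjusted p = 4.72e-12) and 1.47-fold higher in Nfe2l1-labelled libraries (0.55 ± 0.06 SE, adjusted p = 8.81e-08), both against GFP-labelled libraries. It was 1.57-fold higher in Nfya-labelled than in Nfe2l1-labelled libraries (0.65 ± 0.05 SE, adjusted p = 1.98e-09). These calls were shared by 4.04% of all genes tested. The summed fibroblast markers stood in the same order of groups as Icam1, and their part in this result was not tested.

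Vcam1 encodes the vascular cell adhesion molecule that binds the integrin with the alpha 4 chain. It had 50.3, 51.2 and 48.9 CPM in Nfya-labelled libraries, 31.2, 30.9 and 29.4 CPM in Nfe2l1-labelled libraries and 36.9, 33.8 and 34.5 CPM in GFP-labelled libraries. The Nfya-labelled libraries were the highest and the Nfe2l1-labelled ones the lowest, with no overlap among the 3 groups. Against GFP-labelled libraries Vcam1 was 1.43-fold higher in Nfya-labelled libraries (log2 fold change 0.51 ± 0.07 SE, adjusted p = 6.6e-07), and it fell by 0.20 ± 0.08 in Nfe2l1-labelled libraries (SE, adjusted p = 0.022). The fall was not called with no filter on low counts (adjusted p = 0.0872), with DESeq2 (0.161), without GFP replicate 1 (0.154) or without Nfe2l1 replicate 3 (0.12). The range of its adjusted p was 0.022 to 0.161 when all alternatives were counted. Directly between the factors Vcam1 was 1.64-fold higher in Nfya-labelled than in Nfe2l1-labelled libraries (0.72 ± 0.07 SE, adjusted p = 2.01e-08). This set of calls was found for 2.3% of all genes tested. The smooth muscle and pericyte marker sums stood in the same order of groups as Vcam1, but single markers did not all follow them. Of 11 tested, 7 were called higher and 1 lower in Nfya-labelled against GFP-labelled libraries. In Nfe2l1-labelled against GFP-labelled libraries 3 were called higher and 4 lower. The part of these cell types in this result was not tested.

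Among the inhibitors, Nfkbia encodes IkB alpha, which binds NF-kB dimers and takes them out of the nucleus. It had 35.7, 41.9 and 39.5 CPM in Nfya-labelled libraries, 38.9, 39.4 and 38.9 CPM in Nfe2l1-labelled libraries and 49.5, 47.7 and 50.1 CPM in GFP-labelled libraries. Every GFP-labelled library was above every library of both factors, which overlapped each other. Nfkbia fell by 0.33 ± 0.07 on the log2 scale in Nfya-labelled libraries (SE, adjusted p = 0.000167) and by 0.33 ± 0.07 in Nfe2l1-labelled libraries (SE, adjusted p = 0.000123), both against GFP-labelled libraries. Between Nfya-labelled and Nfe2l1-labelled libraries the log2 difference was 0.00, with a 95% interval of -0.15 to 0.16 (adjusted p = 0.985).

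Nfkbiz encodes IkB zeta, a nuclear relative of the inhibitors that assists NF-kB at a subset of late targets such as Il6. It showed the largest fall of the 10 genes with both factors. Its level was 37.4, 36.9 and 35.8 CPM in Nfya-labelled libraries, 35.4, 29.6 and 34.5 CPM in Nfe2l1-labelled libraries and 79.2, 78.0 and 78.9 CPM in GFP-labelled libraries. Nfkbiz was 2.14-fold higher in GFP-labelled than in Nfya-labelled libraries (Nfya against GFP log2 fold change -1.10 ± 0.07 SE, adjusted p = 1.1e-10). It was 2.37-fold higher in GFP-labelled than in Nfe2l1-labelled libraries (Nfe2l1 against GFP -1.24 ± 0.07 SE, adjusted p = 2.14e-11). The Nfya-labelled libraries all lay above the Nfe2l1-labelled ones, but the log2 difference of 0.14 was not called (95% interval -0.02 to 0.31, adjusted p = 0.114). It was called at 0.20 without Nfe2l1 replicate 1 (adjusted p = 0.0426). The calls of Nfkbia and Nfkbiz, lower with both factors and not called between them, were shared by 10.7% of all genes tested.

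Tnfaip3 encodes A20, a ubiquitin-editing enzyme that ends NF-kB signalling. It had 14.7, 18.1 and 18.3 CPM in Nfya-labelled libraries, 11.7, 10.03 and 12.8 CPM in Nfe2l1-labelled libraries and 17.9, 21.6 and 18.1 CPM in GFP-labelled libraries. The Nfe2l1-labelled libraries were the lowest without overlap, and the Nfya-labelled libraries overlapped the GFP-labelled ones. Tnfaip3 fell by 0.73 ± 0.12 on the log2 scale in Nfe2l1-labelled against GFP-labelled libraries (SE, adjusted p = 9.22e-05) and was 1.48-fold higher in Nfya-labelled than in Nfe2l1-labelled libraries (adjusted p = 0.00147). In Nfya-labelled against GFP-labelled libraries its log2 fold change was -0.17 (95% interval -0.42 to 0.07, adjusted p = 0.223). Tnfaip3 and Ptgs2 had the same calls in the 3 comparisons, which 6.98% of all genes tested shared.

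The authors' deposited tables of Nfya against GFP and Nfe2l1 against GFP gave the same call for 10 of the 10 genes in each comparison. The log2 fold changes of the authors' deposited tables differed from the present ones by at most 0.04 for Nfya and 0.00069 for Nfe2l1. Together the 10 genes held 0.0453 to 0.0459% of counts in Nfya-labelled, 0.0350 to 0.0368% in Nfe2l1-labelled and 0.0368 to 0.0385% in GFP-labelled libraries. Across the 9 libraries, the genes whose log2 CPM was most alike were Cd276 for Ccl2 (Pearson r 0.996), Col12a1 for Cxcl12 (0.995), Mmp23 for Icam1 (0.997), Abcg2 for Vcam1 (0.994), Cacna1s for Nfkbiz (0.996) and Rdh11 for Tnfaip3 (0.992). These were picked as the top of 11941 genes searched, and the 9 points fall in 3 groups, so r mostly describes shared group means.

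The rest of the pathway was read from 9 lists of genes by role, without the 10 genes. Of 214 further pathway genes 157 were tested, and 62 of these rose and 41 fell in Nfya-labelled against GFP-labelled libraries, 65.6% in all beside 52.2% of all genes tested. In Nfe2l1-labelled against GFP-labelled libraries 60 rose and 41 fell (64.3% beside 58.6%), and in Nfya-labelled against Nfe2l1-labelled libraries 51 were higher and 37 lower (56.1% beside 50.6%). The medians of their log2 fold changes were 0.06, 0.08 and 0.08 in that order of comparisons, beside -0.02, -0.01 and 0.01 over all genes tested. The counts of single lists below stand beside 24.3% higher and 27.9% lower of all genes tested in Nfya-labelled against GFP-labelled libraries. In Nfe2l1-labelled against GFP-labelled libraries those shares were 28.9% and 29.7%. Of 27 other NF-kB target genes tested, 9 rose and 8 fell with Nfya and 14 rose and 5 fell with Nfe2l1, against GFP-labelled libraries. By DESeq2, 9 of them rose and 2 fell with Nfya, and 12 rose and 4 fell with Nfe2l1. Of 4 chemokine receptors tested, 2 rose and 0 fell with each factor against GFP-labelled libraries.

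In the list of cytokine and pattern receptors, which also holds decoy receptors, receptors of the interleukin 6 family and a few signalling genes such as Socs3 and Stat3, 15 of 27 tested rose and 4 fell in Nfya-labelled against GFP-labelled libraries, and 11 rose and 8 fell in Nfe2l1-labelled against GFP-labelled libraries. Tlr4, the receptor for bacterial lipopolysaccharide, averaged 31.7 ± 2.78 CPM in Nfya-labelled, 43.3 ± 3.44 CPM in Nfe2l1-labelled and 7.33 ± 1.35 CPM in GFP-labelled libraries (SD, n = 3 each). Il1r1, the signalling receptor for interleukin 1, averaged 137 ± 3.34 CPM in Nfya-labelled, 111 ± 4.79 CPM in Nfe2l1-labelled and 48.7 ± 1.46 CPM in GFP-labelled libraries (SD, n = 3 each). Both rose with both factors. Tlr4 rose by a log2 fold change of 2.10 with Nfya and 2.55 with Nfe2l1, and Il1r1 by 1.49 with Nfya and 1.19 with Nfe2l1. The receptor gene Tnfrsf1a was not called with Nfya (-0.08, adjusted p = 0.0822 by edgeR) and rose by 0.21 with Nfe2l1. Of the cytokine genes named by role, Tnf had 0 to 7 counts and Il1b 0 to 4 counts in a library, too few to test. Of 9 further cytokines tested, 5 rose and 2 fell with Nfya and 5 rose and 0 fell with Nfe2l1, against GFP-labelled libraries. By DESeq2, 3 cytokines rose and 0 fell with Nfya, and 4 rose and 0 fell with Nfe2l1. Il33 rose by 1.47 with Nfya and 1.00 with Nfe2l1. Clcf1 had log2 fold changes of -0.43 with Nfya and 1.31 with Nfe2l1, both called by edgeR. Il6r, which binds the Il6 protein, fell with both factors, to 36.8 ± 2.85 CPM in Nfya-labelled and 32.1 ± 2.47 CPM in Nfe2l1-labelled libraries, against 66.6 ± 2.23 CPM in GFP-labelled libraries (SD, n = 3 each).

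Among the Rel subunits and the kinases and adaptors between receptor and inhibitor, 8 of 30 rose and 9 fell in Nfya-labelled against GFP-labelled libraries, and 10 rose and 8 fell in Nfe2l1-labelled against GFP-labelled libraries. The 8 that fell with Nfe2l1 were 5 with DESeq2 and with the stricter threshold of 0.01. They were also 5 without GFP replicate 1, GFP replicate 2, Nfe2l1 replicate 1 or Nfe2l1 replicate 2. With Nfya, 6 rose and 6 fell by DESeq2. Rela, which encodes the transactivating subunit p65, was called in none of the 3 comparisons by edgeR or DESeq2, at log2 fold changes of 0.06 with Nfya, 0.09 with Nfe2l1 and -0.03 between the factors, and had no unadjusted p below 0.05. It was called higher with Nfe2l1 with no filter on low counts (adjusted p = 0.0189) and with the filter of 5 CPM (0.0315). Nfkb1, which encodes p105 and p50, rose by 0.32 with Nfya and 0.40 with Nfe2l1 on the log2 scale. Relb fell by 0.40 with Nfe2l1, and Rel fell by 0.62 with Nfya. In the core kinase complex, Chuk (-0.22) and Ikbkg (-0.26) were called lower with Nfya by edgeR, and Ikbkb (-0.00) was not called. With Nfe2l1 none of these was called, at -0.04 for Chuk, 0.08 for Ikbkg and 0.06 for Ikbkb. Ikbke, an inducible kinase related to the core kinases, rose by 1.94 with Nfya and 2.93 with Nfe2l1, whereas Map3k14, the kinase of the alternative pathway, fell, with log2 fold changes of -1.10 with Nfya and -0.90 with Nfe2l1. Of 15 further inhibitor and feedback genes, 1 rose and 7 fell in Nfya-labelled against GFP-labelled libraries, and 3 rose and 5 fell in Nfe2l1-labelled against GFP-labelled libraries. Counted with Nfkbia, Nfkbiz and Tnfaip3, 9 of 18 fell with Nfya by edgeR and 5 by DESeq2. The median log2 fold change of the 15 was -0.10 with Nfya and 0.01 with Nfe2l1. Nfkbib, which encodes IkB beta, fell by 0.31 with Nfya, a call lost with DESeq2 (adjusted p = 0.0717), and had a log2 fold change of 0.09 with Nfe2l1 that was not called.

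Relatives of the chemokine and adhesion genes did not all move with them. Of 11 further chemokines tested out of 31 in the table, 5 rose and 3 fell with Nfya and 2 rose and 5 fell with Nfe2l1, against GFP-labelled libraries. Ccl7, a monocyte chemokine like Ccl2, had log2 fold changes of 0.35 with Nfya (adjusted p = 0.0974) and -0.13 with Nfe2l1 (adjusted p = 0.543), neither called. With Nfya it was called higher in a fit of only the 6 libraries compared (adjusted p = 0.0378), without GFP replicate 1 (0.0419) and without Nfe2l1 replicate 1 (0.0361). Cxcl16, a chemokine that is also made as a membrane protein, rose by 1.67 with Nfya and 1.83 with Nfe2l1, and Cx3cl1, the membrane chemokine fractalkine, fell, with log2 fold changes of -1.01 with Nfya and -1.97 with Nfe2l1. Of the Cxcl12 receptors, the scavenging receptor Ackr3 rose by 1.10 with Nfya and 0.94 with Nfe2l1, and Cxcr4 was not called (0.15 with Nfya and 0.06 with Nfe2l1).

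**Figure D4:**
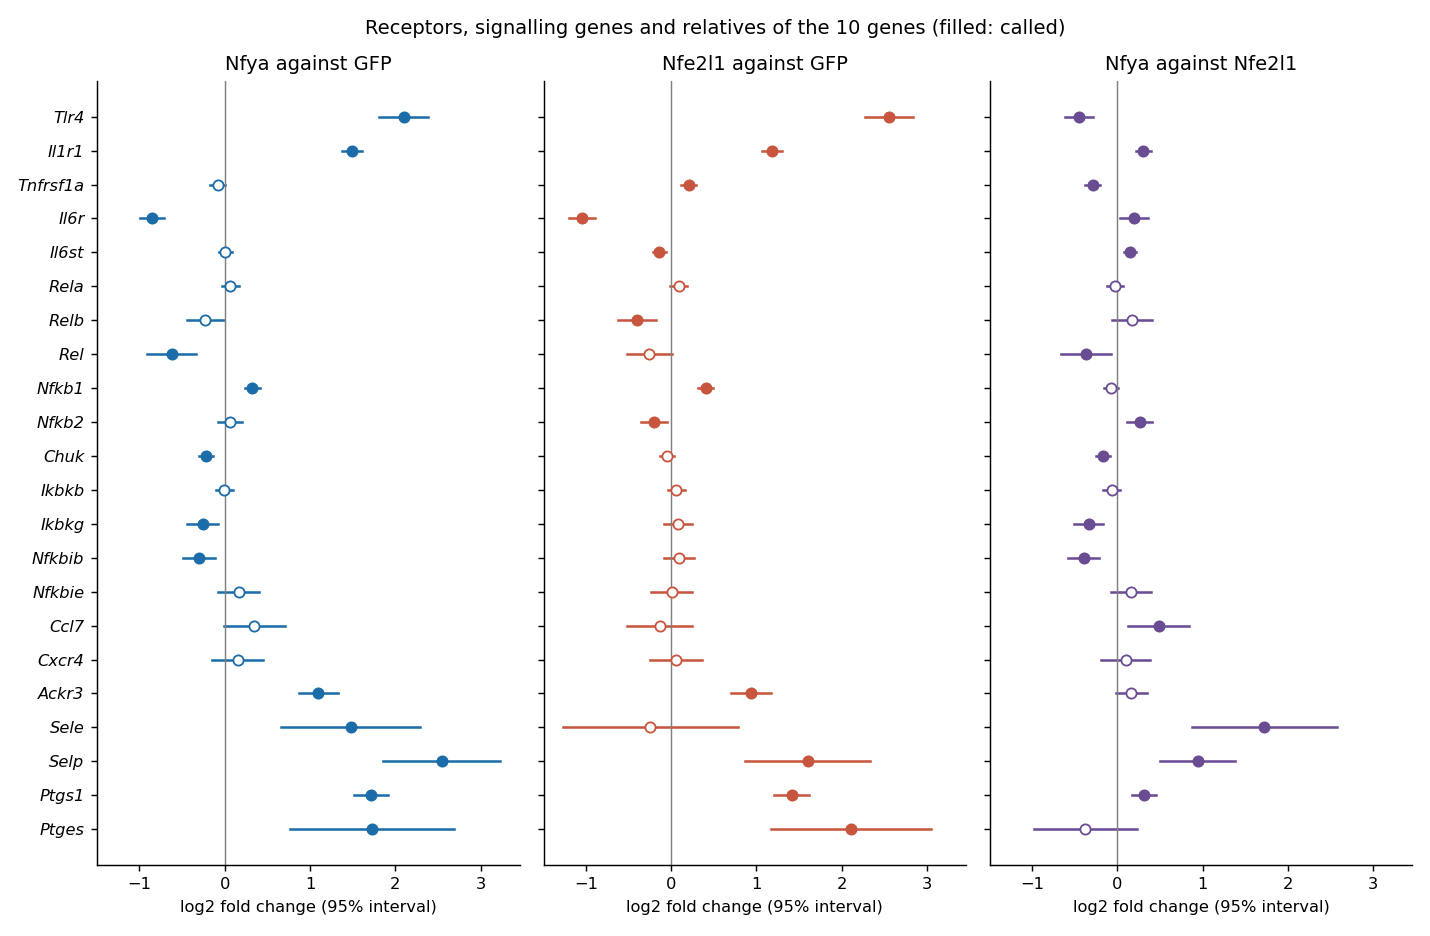
Log2 fold changes with 95% intervals of 22 receptor, signalling and related genes named by role, in Nfya-labelled against GFP-labelled, Nfe2l1-labelled against GFP-labelled and Nfya-labelled against Nfe2l1-labelled libraries, with called genes filled. Tlr4, Il1r1, Ackr3, Selp, Ptgs1 and Ptges lie right of 0 with both factors, Il6r lies left of 0, and Rela lies near 0 in every panel.

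Of 17 further adhesion genes, 8 rose and 4 fell with Nfya and 5 rose and 6 fell with Nfe2l1, against GFP-labelled libraries. Itga4, the alpha 4 integrin chain, whose integrin binds Vcam1, averaged 52.5 ± 1.06 CPM in Nfya-labelled, 12.2 ± 1.22 CPM in Nfe2l1-labelled and 15.8 ± 0.52 CPM in GFP-labelled libraries (SD, n = 3 each). Like Vcam1 it rose with Nfya (log2 fold change 1.73, adjusted p = 8.62e-12) and fell with Nfe2l1 (-0.36, adjusted p = 0.007), though the fall was not called with DESeq2 (adjusted p = 0.0541) or without Nfe2l1 replicate 2 (0.0612). Itgax, a leukocyte integrin chain, averaged 3.23 ± 0.50 CPM in Nfya-labelled, 69.9 ± 4.55 CPM in Nfe2l1-labelled and 4.46 ± 0.62 CPM in GFP-labelled libraries (SD, n = 3 each). Of 11 leukocyte markers tested, 1 was called higher and 1 lower in Nfya-labelled against Nfe2l1-labelled libraries. The leukocyte marker Ptprc held 54 to 71 counts in Nfya-labelled, 55 to 68 in Nfe2l1-labelled and 32 to 45 in GFP-labelled libraries. Another, Csf1r, held 143 to 156 counts in Nfya-labelled, 191 to 258 in Nfe2l1-labelled and 144 to 223 in GFP-labelled libraries. Of 17 further prostaglandin genes 9 rose and 4 fell with Nfya and 8 rose and 4 fell with Nfe2l1. Ptgs1, the constitutive relative of Ptgs2, rose by 1.72 with Nfya and 1.41 with Nfe2l1, whereas Ptgs2 did not rise with either. Hpgd, which breaks prostaglandins down, rose by 2.99 with Nfya and 2.41 with Nfe2l1. Ptgir rose by 1.16 with Nfya and 3.39 with Nfe2l1. Ptger3 fell, with log2 fold changes of -2.23 with Nfya and -2.01 with Nfe2l1.

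**Figure D5:**
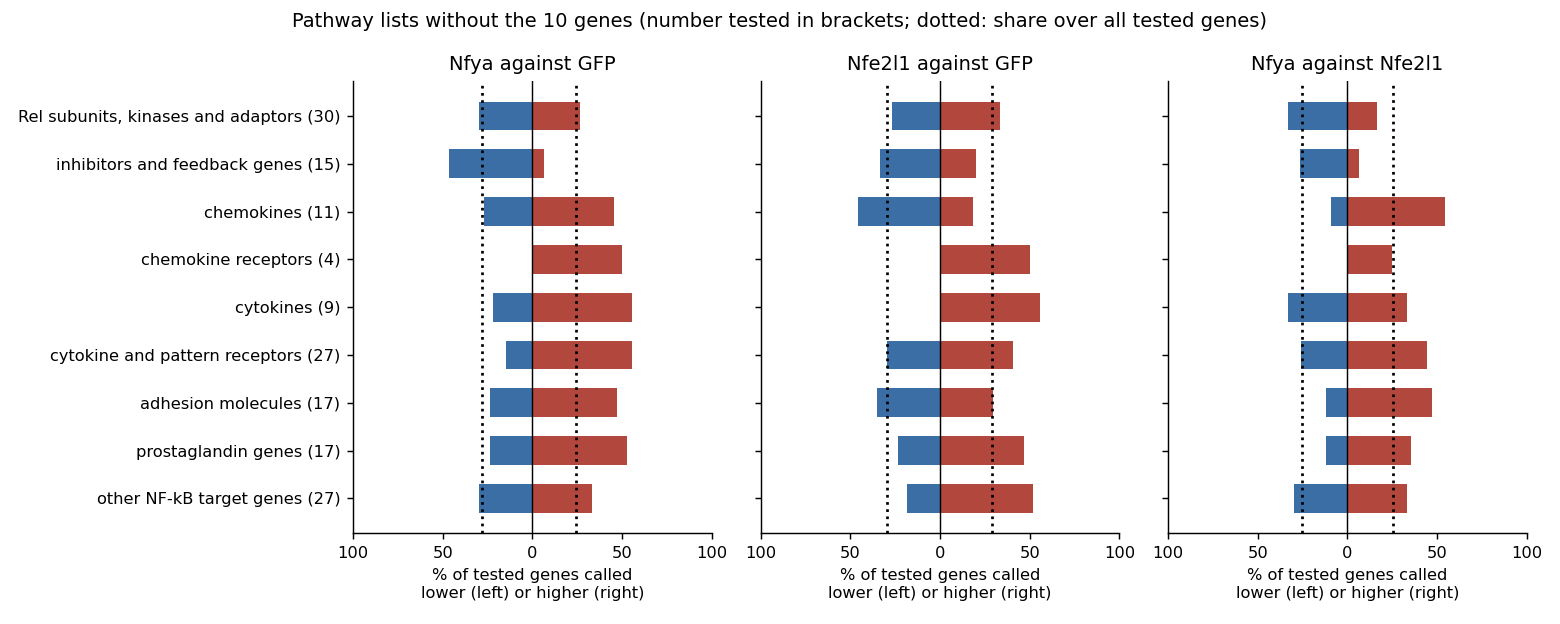
Percent of the tested genes of 9 pathway lists, without the 10 genes, called lower (left of 0) or higher (right of 0) in each of the 3 comparisons, with the share over all tested genes dotted. The receptor list reaches right of the dotted line in Nfya-labelled against GFP-labelled libraries (15 of 27), and inhibitors and feedback genes reach left of it there (7 of 15 by edgeR, a list with fewer calls by DESeq2).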

How the data were processed

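Stranded mRNA libraries were counted with featureCounts 1.6.0 and tested by the authors with edgeR 3.20.5, per the submitters' processing notes, which name the builds rn6, mm10 and GRCm38. The sources used here do not give the aligner, the strand setting or the treatment of duplicate reads. The deposited files hold raw counts per gene, RPKM with gene lengths, and the authors' tables of log2 fold change, log2 CPM, likelihood ratio (a score), p-value and adjusted p. Counts divided by length and library total matched the deposited RPKM. From the counts, TMM-scaled CPM and edgeR 4.0.16 quasi-likelihood tests (filterByExpr, all 9 libraries, group only, Benjamini-Hochberg adjustment) were computed in R 4.3.3. A standard error is the log2 fold change over the t value of its p, and never below the counting error of the summed counts. On simulated counts for Nfya against GFP with 2-fold changes, 180 of 196 changed genes were recovered with 9 false calls among 13669 genes. In the data 52.2% of genes were called there, at a median absolute log2 fold change of 0.37. The simulated rates need not hold for such changes. Between replicates, chi-square over degrees of freedom for genes of 200 counts or more was 0.800 to 0.850 for Nfya, 0.981 to 1.61 for Nfe2l1 and 0.992 to 1.78 for GFP, so only the Nfya pairs all varied less than counting error. For genes below 200 counts it was 1.22 to 1.34, 1.33 to 1.41 and 1.18 to 1.51 in the same order. The 10 genes held at most 0.429 counts per base. The genes, the lists (305 of 314 list genes found) and the tests were chosen with earlier results of these data known. Further genes were named by role. Others were taken from the strongest called rise and the strongest called fall of every list and comparison, at 5 CPM or more in either group. Not all genes picked in these ways are described. No batch is labelled. The alternatives were another scaling (RLE), other filters, DESeq2 1.42.0, fits of 6 libraries, a replicate block, a stricter threshold and leaving out each library.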

Additional observations from a re-analysis of the deposited data

How the results depend on the processing

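Of 477 values of the 10 genes under 16 alternatives, 458 kept their sign and their side of the threshold, 5 lost the call, 1 gained one and 13, all without a call, changed sign. Calls among the 10 genes stayed at 4 higher and 2 lower (Nfya against GFP) under every alternative run, at 2 higher and 4 to 5 lower (Nfe2l1 against GFP) and at 5 to 6 higher and 1 lower (Nfya against Nfe2l1). Over all genes, DESeq2 called fewer genes in both directions in every comparison, and the cause was not tested. In Nfya against GFP it called 2610 higher and 2486 lower (3433 and 3953 by edgeR). The numbers were 3217 and 3048 in Nfe2l1 against GFP (4095 and 4202 by edgeR). They were 2437 and 2392 in Nfya against Nfe2l1 (3561 and 3597 by edgeR). Same-numbered libraries did not deviate together (r of deviations -0.065 to 0.049, different numbers -0.067 to 0.060). The replicate block changed no call of the 10 genes and gave 3371 higher and 3849 lower genes for Nfya against GFP, 4040 and 4097 for Nfe2l1 against GFP, and 3428 and 3501 for Nfya against Nfe2l1. With that block Clcf1 in Nfya against GFP and Il6r and Cxcl16 in Nfya against Nfe2l1 were not called. Il6 fell below the filter of 5 CPM, so it has no value there.

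Values near 0 without a call changed sign, and the cause was not tested. In Nfya against GFP, Ikbkb was 0.00875 with RLE scaling, 0.0247 with no filter, 0.0355 at 5 CPM or more, 0.0103 with DESeq2 and 0.0315 with 6 libraries. Tnip1 in the same comparison was 0.00527 with RLE scaling, 0.0211 with no filter, 0.0318 at 5 CPM or more, 0.00477 with DESeq2 and 0.0277 with 6 libraries. Nfkbia in Nfya against Nfe2l1 was -0.0046 with no filter. Leaving out each library in turn gave log2 ranges in Nfya against GFP of -0.0399 to 0.362 for Cxcl1, -0.10 to 0.11 for Il6, -0.00888 to 0.0823 for Ptgs2, -0.00373 to 0.139 for Nfkb2, -0.0284 to 0.0510 for Ikbkb, -0.0290 to 0.0284 for Tnip1 and -0.132 to 0.0611 for Tbxa2r. The ranges in Nfe2l1 against GFP were -0.12 to 0.28 for Cxcl1, -0.22 to 0.13 for Il6, -0.0105 to 0.0399 for Nfkbie, -0.00384 to 0.168 for Cxcr4, -0.61 to 0.14 for Sele and -0.46 to 0.11 for Tslp. In Nfya against Nfe2l1 they were -0.13 to 0.26 for Il6 and -0.0520 to 0.0619 for Nfkbia. The depth of 19 to 41 counts a library limits Cxcl1 and Il6, and leaving out GFP replicate 2 turns the sign of Cxcl1 with both factors.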
